A study of Mus musculus with 30 samples.

Results

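The genes described here belong to 7 solute carrier (SLC) families that hold amino acid carriers, SLC1, SLC3, SLC6, SLC7, SLC36, SLC38 and SLC43. They were measured in CD11b+ myeloid cells of the mouse. They were chosen by a rule on names, as all symbols of these families in the array's probe annotation other than Slc7a1, Slc7a2 and Slc7a11. The rule found 60 of the 18194 genes measured: 21 of SLC6, 13 of SLC7, 9 of SLC38, 7 of SLC1, 5 of SLC36, 3 of SLC43 and 2 of SLC3. Of these, 57 are carriers and 3 are genes named for the strand opposite to one (Slc36a1os, Slc6a19os and Slc7a6os), of which Slc7a6os is annotated as protein-coding. Some of the carriers move substrates other than amino acids, such as creatine (Slc6a8), purine nucleobases (Slc43a3) and serotonin (Slc6a4). For a gene with several probe sets the one brightest on average across all 30 arrays was used, and 31 of the 60 have only 1 probe set.

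The series compared CD11b+ cells, a magnetic enrichment for the integrin chain of monocytes, macrophages and granulocytes, on Affymetrix whole-genome arrays in 10 groups of 3. From BALB/c mice these were the spleen of healthy animals, the spleen and the tumor infiltrate of animals with C26-GM, a colon carcinoma that the labels call a GM-CSF tumor, and the infiltrate of 4T1, a mammary carcinoma. From C57BL/6 mice they were the spleen of healthy animals and the infiltrates of EL-4, a T cell lymphoma, and MCA203, a fibrosarcoma. BALB/c bone marrow was taken fresh or after 4 days in culture with GM-CSF+IL-6 or GM-CSF+G-CSF, cytokine pairs that give cells resembling the myeloid-derived suppressor cells of tumor-bearing mice. The labels give no sex or age, and no genotype beyond the strain. The submitters set healthy spleen of the strain as the reference for cells from tumor-bearing mice, and fresh marrow as the reference for the cultures, so a tumor infiltrate differs from its reference in organ as well as in tumor. Comparisons with one reference share its 3 arrays. Nothing in the labels says whether the 3 arrays of a group came from separate animals or cultures, so the p-values measure the spread between these arrays only.

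Amino acids cannot cross membranes unaided, and these families carry them in. The SLC7 light chains work as exchangers in pairs with an SLC3 heavy chain, and the pair of Slc3a2 and Slc7a5 trades glutamine from inside the cell for leucine and other large neutral amino acids from outside. SLC1 and SLC38 carriers use the sodium gradient to bring in glutamine, alanine, serine and glutamate, SLC36 and some SLC38 carriers move amino acids across the lysosomal membrane where they are sensed by mTORC1, and SLC6 carriers take up creatine, taurine, proline, betaine and neurotransmitters. In myeloid cells such uptake feeds the enzymes that consume arginine, cysteine and tryptophan around T cells, which is one way in which suppressor cells are known to act.

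All levels and differences here are on the log2 scale of the deposited values, so a difference of 1 is a 2-fold change, and levels of different genes are not compared because each rests on its own probes. A gene was called, and is said to have risen or fallen, where limma's adjusted p was under 0.05 and the difference at least 1 over all 18194 genes. Because the arrays measure enriched bulk cells, fewer cells of a type and less RNA per cell cannot be told apart. The pan-myeloid markers were bright on every array (Itgam, the CD11b gene itself, between 9.15 and 11.6), while markers of other cells differed between groups. Epithelial markers rose in 6 of 7 cases in the 4T1 and the EL-4 infiltrates and in 3 of 7 in MCA203, fibroblast markers in 6, 5 and 4 of 8, and T cell markers in 6 and 5 of 10 in EL-4 and MCA203. Neutrophil markers fell in 9 of 10 cases in EL-4 and in 10 of 10 in MCA203, where their mean level was between 6.60 and 6.92 against 11.9 to 12.0 in healthy C57BL/6 spleen. B cell markers fell in 6 of 7 cases in all 5 comparisons with healthy spleen. The part of such cells in the carrier changes was not tested.

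Some arrays stood apart and are named where a result rests on them. On 4 of the 6 culture arrays the deposited values had a narrow spread (interquartile range between 2.54 and 2.60), namely replicates 1 and 2 of GM-CSF+IL-6 and replicates 1 and 3 of GM-CSF+G-CSF, against 3.37 and 3.28 on the other culture arrays. On the C26-GM tumor array of replicate 3 the actin probe sets of the 3′ and 5′ ends differed by 2.42, a sign of degraded RNA, while the other 29 arrays stayed at or below 0.68. The RNA Xist, made in female cells, was 6.47 or less on the arrays of both C26-GM groups and 10.1 or more elsewhere, so sex and the C26-GM groups cannot be told apart. The free-text labels of the healthy C57BL/6 spleens name BALB/c while their titles and strain field name C57BL/6. H2-Ea, a gene that C57BL/6 mice do not transcribe, lay between 6.23 and 7.35 on the 9 arrays labelled C57BL/6 and at 9.36 or more on the other 21, as the titles have it.

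Of the 60 genes, 22 were called in at least 1 of the 7 comparisons with the submitters' references, 10 of them in 3 or more, and 38 in none. That is 36.7% in at least 1 and 16.7% in 3 or more, against 31.8% and 12% of all genes. In the tumor infiltrates the creatine carrier Slc6a8 was called higher in all 4. The dim proline carrier Slc6a20a was called lower in all 4, but the calls in the C26-GM tumor and 4T1 were lost without replicate 1 of healthy BALB/c spleen. In the cultures the leucine exchanger Slc7a5, the glutamine carriers Slc1a5 and Slc38a1, Slc38a6 and the light chain Slc7a6 rose while the light chain Slc7a7 and Slc43a3 fell. Slc38a1 and Slc38a2 were the 2 genes that rose in one comparison and fell in another.

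As a family the carriers were called about as often as all genes. In the spleen with C26-GM 2 rose and 2 fell, which is 6.67% of the 60, while 6.14% of all genes were called (2.32% rose and 3.83% fell). The C26-GM tumor had 3 rises and 3 falls among the 60, against 11.4% of all genes (4.26% and 7.13%). In 4T1 3 rose and 4 fell, or 11.7%, against 12.3% (6.83% and 5.44%). In EL-4 5 rose and 4 fell, or 15.0%, against 10.8% (6.42% and 4.40%). In MCA203 4 rose and 3 fell, or 11.7%, against 10.4% (5.01% and 5.42%). In the GM-CSF+IL-6 culture 5 rose and 3 fell, or 13.3%, against 14.1% (5.00% and 9.07%). In the GM-CSF+G-CSF culture 8 rose and 2 fell, or 16.7%, against 13.9% (4.48% and 9.37%). The median difference of the 60 was 0.14, 0.25, -0.05, -0.04, 0.14, 0.39 and 0.48 in this order of comparisons, and that of all genes was 0.09, 0.11, -0.01, 0.02, 0.14, 0.12 and 0.14. The culture medians of the 60 depended on the arrays with a narrow spread: on the wide array of each culture alone they were 0.001 and 0.011 in place of 0.39 and 0.48. On those wide arrays the 30 brighter genes of the 60, with a highest group mean of at least 5.90, had medians of 0.29 and 0.39. The 30 dimmer genes had -0.12 and -0.06, and all genes -0.03 and 0.007.

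**Figure D1:**
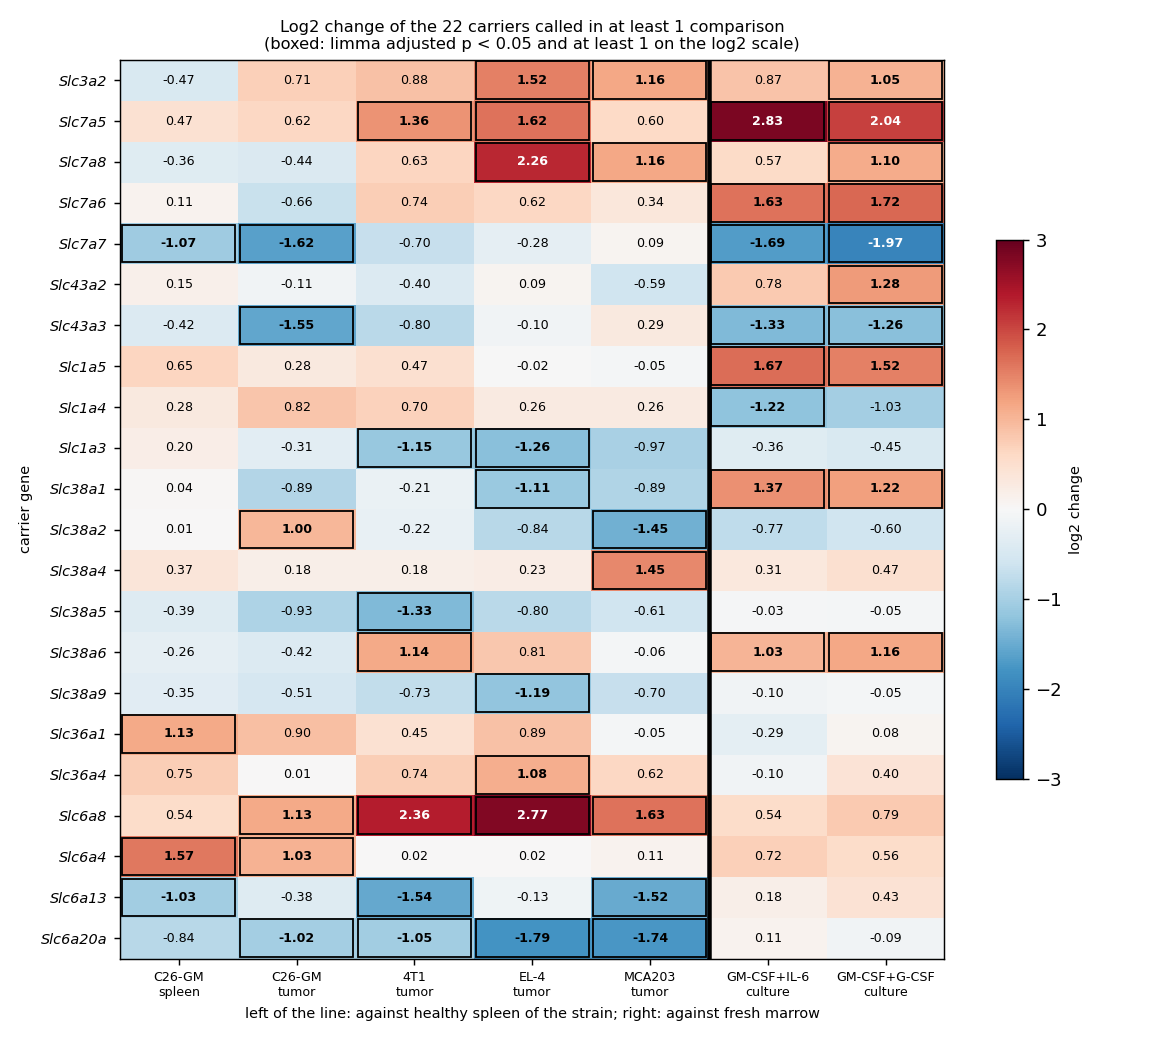
Log2 difference of the 22 carrier genes called in at least 1 of 7 comparisons (rows, ordered by family) against healthy spleen of the strain (5 columns on the left) or fresh marrow (2 on the right), with red for higher and blue for lower and a box where limma's adjusted p was under 0.05 and the difference at least 1. Slc6a8 is boxed in all 4 tumor infiltrates and in neither culture, while Slc7a5 reaches its highest difference, 2.83, in the GM-CSF+IL-6 culture.

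The split into rises and falls moved with the scaling in 5 of these 7 comparisons. When each array was centred on housekeeping genes, the median difference of all genes in EL-4 moved from 0.02 to -0.28, and 4 carriers rose and 7 fell there. The same centring gave 4 rises and 5 falls in MCA203, 3 rises and 2 falls in the C26-GM tumor, and 6 rises and 3 falls in the GM-CSF+G-CSF culture. A second quantile normalization gave 2 rises and 4 falls in the C26-GM tumor and 7 rises and 2 falls in the GM-CSF+IL-6 culture. Housekeeping centring ended the calls of Slc36a4 in EL-4 (0.78), Slc6a20a in the C26-GM tumor (-0.95), Slc38a6 with GM-CSF+IL-6 (0.95), and Slc3a2 (0.94) and Slc7a8 (0.99) with GM-CSF+G-CSF, and it added falls of Slc38a2 (-1.14), Slc38a5 (-1.10) and Slc6a12 (-1.205) in EL-4, Slc1a3 (-1.08) and Slc38a1 (-1.004) in MCA203 and Slc1a4 (-1.14) with GM-CSF+G-CSF. The quantile normalization ended those of Slc36a4 in EL-4 (0.96) and of Slc38a2 (0.97) and Slc6a4 (0.93) in the C26-GM tumor, and of Slc1a4 with GM-CSF+IL-6 (adjusted p = 0.128). It added Slc3a2 (1.15) and Slc43a2 (1.03) with GM-CSF+IL-6, Slc38a7 (1.06) with GM-CSF+G-CSF, Slc36a1 (1.05) and Slc38a5 (-1.08) in the C26-GM tumor and Slc1a3 (-1.08) in MCA203. Weighting each array by its quality ended the calls of Slc6a13 in C26-GM spleen (-0.87), Slc6a4 (0.94) and Slc6a20a (-0.91) in the C26-GM tumor, Slc6a20a in 4T1 (-0.999) and Slc38a6 with GM-CSF+IL-6 (0.97). With GM-CSF+G-CSF it ended those of Slc38a1 (0.91), Slc3a2 (0.92), Slc43a2 (0.93) and Slc7a8, which went from 1.10 to 0.69. It added Slc36a1 in the C26-GM tumor (1.04) and, in the cultures, 6 carriers each, among them Slc38a2 with GM-CSF+IL-6 (-1.12). The fitting of these weights gave a warning that its convergence tolerance was not achievable, and all results with array weights were kept as computed. Averaging a gene's probe sets ended the calls of Slc38a6 in 4T1 (0.71) and both cultures (0.70 and 0.77), Slc38a1 (-0.96) and Slc38a9 (-0.67) in EL-4 and Slc1a5 with GM-CSF+G-CSF (0.91), and it added Slc1a3 in the C26-GM tumor (-1.15) and MCA203 (-1.21) and Slc6a8 with GM-CSF+G-CSF (1.07).

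The heavy chain Slc3a2 (CD98) brings SLC7 light chains to the cell surface, and its level on the arrays of healthy C57BL/6 spleen was 9.19, 9.10 and 9.15. On the EL-4 arrays it was 10.59, 10.71 and 10.71, and on the MCA203 arrays 10.05, 10.49 and 10.38. Every infiltrate array lay above every spleen array, with a difference of 1.52 ± 0.19 (SE, adjusted p = 6.87e-07) for EL-4 and 1.16 ± 0.19 (SE, adjusted p = 3.52e-05) for MCA203. In BALB/c healthy spleen Slc3a2 stood at 9.74, 9.56 and 9.61, in the C26-GM tumor at 10.48, 10.41 and 10.13 and in 4T1 at 10.50, 10.71 and 10.32. These groups did not overlap either, but the differences of 0.71 ± 0.19 (SE, adjusted p = 0.0063) and 0.88 ± 0.19 (SE, adjusted p = 0.000827) were under 2-fold. The spleen with C26-GM gave 9.09, 8.83 and 9.59, with replicate 3 inside the range of healthy spleen, and a difference of -0.47 ± 0.19 (SE, adjusted p = 0.11). Fresh marrow gave 9.57, 9.24 and 9.30, the GM-CSF+IL-6 culture 9.89, 10.14 and 10.68 and the GM-CSF+G-CSF culture 10.34, 10.70 and 10.22. All 6 culture arrays were above the 3 of marrow, and the rise was called with GM-CSF+G-CSF, at 1.05 ± 0.19 (SE, adjusted p = 0.0001), while it was 0.87 ± 0.19 (SE, adjusted p = 0.000819) with GM-CSF+IL-6. The first of these lost its call, at 0.99, without fresh marrow replicate 2 and, at 0.91, without GM-CSF+G-CSF replicate 2, and the second was called, at 1.04, without GM-CSF+IL-6 replicate 1. Slc3a1, the heavy chain of the renal cystine carrier, was dim and was called nowhere, with differences between -0.42 and 0.93.

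Slc7a5 is the light chain that joins Slc3a2 in the exchanger of leucine and other large neutral amino acids, and among the 60 genes it gave the largest rise in each culture. Fresh marrow had 6.71, 6.62 and 6.52, the GM-CSF+IL-6 culture 9.25, 9.29 and 9.81 and the GM-CSF+G-CSF culture 8.46, 9.08 and 8.44. Every culture array lay far above every marrow array. Slc7a5 rose by 2.83 ± 0.19 (SE, adjusted p = 1.25e-11) with GM-CSF+IL-6, which is 7.13-fold, and by 2.04 ± 0.19 (SE, adjusted p = 5.32e-09) with GM-CSF+G-CSF. In the tumors, healthy BALB/c spleen stood at 6.48, 6.32 and 6.42, C26-GM spleen at 6.72, 6.96 and 6.93, the C26-GM tumor at 6.96, 6.99 and 7.10 and 4T1 at 7.76, 7.86 and 7.66. All 9 arrays from tumor-bearing BALB/c mice were above the healthy ones, and the 3 of 4T1 were the highest. The rise was called in 4T1 (1.36 ± 0.19 SE, adjusted p = 3.15e-06), while the difference was 0.62 ± 0.19 (SE, adjusted p = 0.0169) in the C26-GM tumor and 0.47 ± 0.19 (SE, adjusted p = 0.111) in its spleen. In C57BL/6 healthy spleen Slc7a5 read 5.99, 6.00 and 5.97, in EL-4 7.30, 7.84 and 7.69 and in MCA203 6.35, 7.08 and 6.32. It rose in EL-4 by 1.62 ± 0.19 (SE, adjusted p = 2.46e-07), and in MCA203, where replicate 2 lay well above the other 2 arrays, the difference was 0.60 ± 0.19 (SE, adjusted p = 0.0223).

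Slc7a8, the second Slc3a2 partner for neutral amino acids, rose with Slc3a2 in both C57BL/6 tumors. Healthy C57BL/6 spleen had 6.27, 5.82 and 5.86, EL-4 7.80, 8.38 and 8.56 and MCA203 7.37, 7.38 and 6.67. No infiltrate array overlapped the spleen arrays, and Slc7a8 rose by 2.26 ± 0.29 (SE, adjusted p = 1.19e-06), or 4.8-fold, in EL-4 and by 1.16 ± 0.29 (SE, adjusted p = 0.00416) in MCA203. BALB/c healthy spleen had 6.84, 6.65 and 6.44, C26-GM spleen 6.18, 6.30 and 6.35, the C26-GM tumor 5.94, 6.08 and 6.59 and 4T1 7.29, 7.41 and 7.12. Here the C26-GM tumor arrays overlapped the healthy ones, and none of the differences was called: -0.36 ± 0.29, -0.44 ± 0.29 and 0.63 ± 0.29 (SE, adjusted p = 0.493, 0.285 and 0.128). Marrow stood at 5.76, 5.43 and 6.21, GM-CSF+IL-6 at 5.98, 6.03 and 7.10 and GM-CSF+G-CSF at 6.28, 7.53 and 6.91. The GM-CSF+IL-6 arrays overlapped those of marrow (difference 0.57 ± 0.29 SE, adjusted p = 0.125), while the rise with GM-CSF+G-CSF was called, at 1.10 ± 0.29 (SE, adjusted p = 0.00459). That call was lost without fresh marrow replicate 2 (0.92) and without GM-CSF+G-CSF replicate 2 (0.79), the array with the wide spread.

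The bases just upstream of the start sites of Slc3a2 and Slc7a8 are shown because the 2 genes rose together in EL-4 and MCA203. They come from RefSeq promoters (250 bases before to 50 after the start) of build GRCm38.p6, both genes lie on the minus strand, and the letters run 5′ to 3′ on that strand and end at the base before the start site. The Slc3a2 bases span chr19:8713898-8713997, inside the annotated gene (8706882 to 8723369), so they precede an internal start site and not the outermost one. Those of Slc7a8 span chr14:54781887-54781986, just upstream of the annotated gene (54722215 to 54781886). Capitals would mark a match to the composite C/EBP-ATF motif TGATGNAAT or the E-box CACGTG, searched on both strands, and there was none in either promoter.
Slc3a2: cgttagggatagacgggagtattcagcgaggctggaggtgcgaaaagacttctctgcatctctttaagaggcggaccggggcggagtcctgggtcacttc
Slc7a8: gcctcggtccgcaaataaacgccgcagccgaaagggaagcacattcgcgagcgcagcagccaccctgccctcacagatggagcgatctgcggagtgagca

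Slc7a6 and Slc7a7 are the light chains of the y+L system, in which a cationic amino acid leaves the cell in exchange for a neutral one and sodium, and they moved in opposite directions in the cultures. For Slc7a7, whose loss in humans causes lysinuric protein intolerance with disturbed macrophages, marrow had 8.64, 8.58 and 8.69, GM-CSF+IL-6 6.74, 6.64 and 7.47 and GM-CSF+G-CSF 6.51, 7.12 and 6.37. All culture arrays were below those of marrow, at -1.69 ± 0.20 (SE, adjusted p = 1.94e-07) and -1.97 ± 0.20 (SE, adjusted p = 1.53e-08). Healthy BALB/c spleen had 9.65, 9.52 and 9.73, C26-GM spleen 8.79, 8.59 and 8.33, the C26-GM tumor 8.19, 8.10 and 7.75 and 4T1 8.91, 8.98 and 8.92. Slc7a7 was lower on all 9 arrays of tumor-bearing mice, and the fall was called in C26-GM spleen (-1.07 ± 0.20 SE, adjusted p = 0.00028) and in the C26-GM tumor (-1.62 ± 0.20 SE, adjusted p = 2.89e-07) but not in 4T1 (-0.70 ± 0.20 SE, adjusted p = 0.00836). In C57BL/6 the healthy arrays at 8.78, 8.31 and 8.68 overlapped both EL-4 at 8.23, 8.37 and 8.34 and MCA203 at 8.88, 8.50 and 8.66. The differences there were -0.28 ± 0.20 (SE, adjusted p = 0.371) and 0.09 ± 0.20 (SE, adjusted p = 0.781). The fall in C26-GM spleen was -0.95 and no longer called without C26-GM spleen replicate 3. A second Slc7a7 probe set gave -1.10 in that spleen, where it was not called, -2.63 in the C26-GM tumor, and -1.90 and -1.37 in the cultures. Markers of monocytes and macrophages fell in 4 of 9 cases in C26-GM spleen, 6 in the C26-GM tumor and 4 in each culture, while 1, 1, 2 and 3 of them rose there, and their part in the fall of Slc7a7 was not tested.

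Slc7a6 rose in both cultures, by 1.63 ± 0.18 (SE, adjusted p = 1.15e-07) with GM-CSF+IL-6 and 1.72 ± 0.18 (SE, adjusted p = 4.83e-08) with GM-CSF+G-CSF, from 4.81, 5.11 and 4.84 in marrow to 6.24, 6.33 and 7.09 and 6.44, 7.01 and 6.49. It was the highest on the one wide array of each culture, and no array overlapped. Against healthy spleen its differences ran from -0.66 in the C26-GM tumor to 0.74 in 4T1, and none was called. Slc7a6os, transcribed from the other strand next to Slc7a6 on chromosome 8, was called in none of the 7 comparisons. The annotated spans of Slc7a6 (106168219 to 106198714) and Slc7a6os (106200438 to 106210933) do not overlap, and whether their probe sets share signal was not tested. Of the other 8 SLC7 carriers, including the kidney cystine chain Slc7a9 and Slc7a10, none was called, with differences of at most 0.83 in size (Slc7a4).

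**Figure D2:**
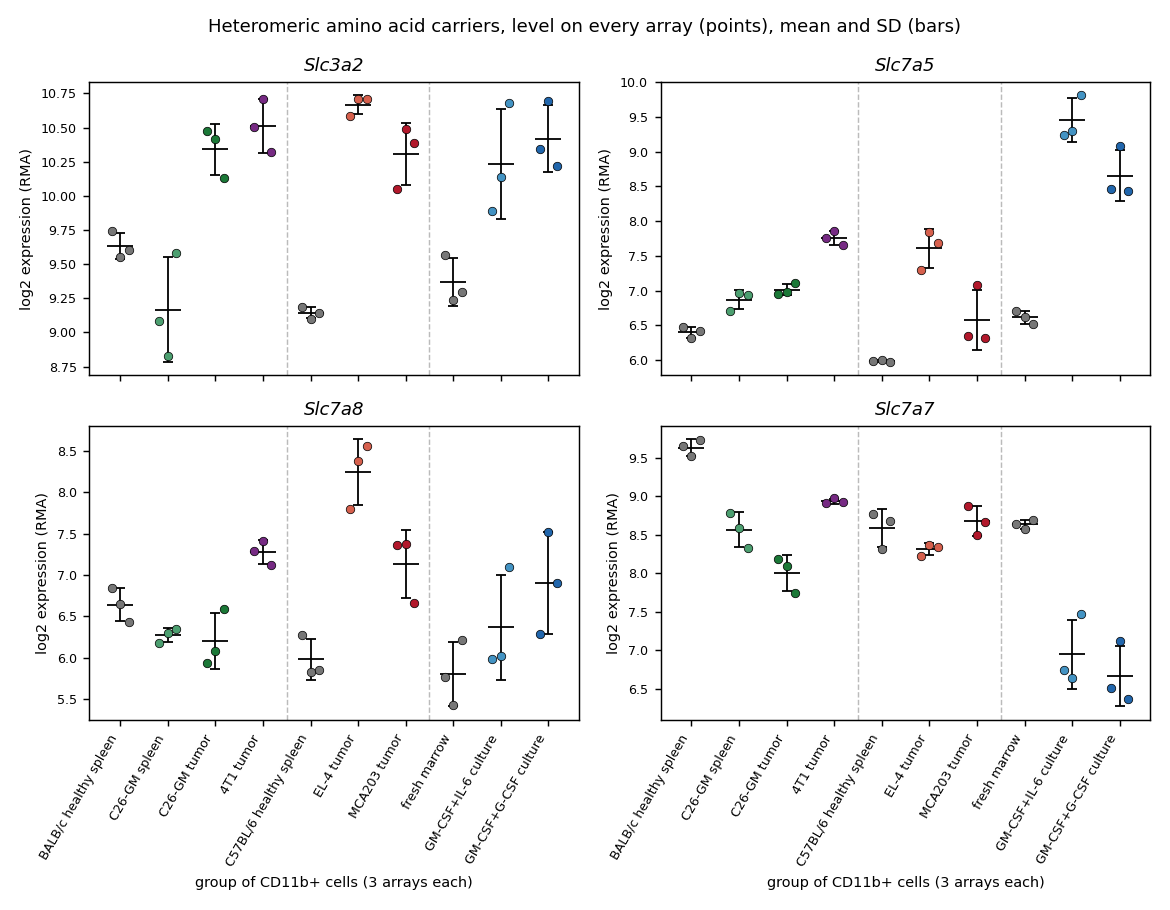
Log2 expression of Slc3a2, Slc7a5, Slc7a8 and Slc7a7 on each of the 30 arrays (coloured points, 3 a group, in the order of replicates), with the mean and SD in black and dashed lines between the sets that share a reference. Slc7a5 is highest in the 2 cultures (8.44 to 9.81), Slc7a8 in EL-4 (7.80 to 8.56), and Slc7a7 lowest in the cultures (6.37 to 7.47).

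The SLC43 family holds the facilitative leucine carriers Slc43a1 and Slc43a2 and the purine nucleobase carrier Slc43a3, and Slc43a3 was the member that fell in comparisons with the submitters' references. Its level was 6.95, 6.50 and 6.48 in healthy BALB/c spleen, 6.70, 6.05 and 5.92 in C26-GM spleen, 5.28, 5.22 and 4.77 in the C26-GM tumor and 5.96, 5.94 and 5.63 in 4T1. The C26-GM tumor arrays were the lowest of all, with a called difference of -1.55 ± 0.23 (SE, adjusted p = 5.13e-06), while 4T1 was lower, at -0.80 ± 0.23 (SE, adjusted p = 0.00845) and C26-GM spleen overlapped the healthy arrays (-0.42 ± 0.23 SE, adjusted p = 0.256). In C57BL/6 healthy spleen at 6.90, 6.83 and 6.65, EL-4 at 6.69, 6.44 and 6.95 overlapped it and MCA203 at 7.10, 7.16 and 7.01 lay slightly above it, with differences of -0.10 ± 0.23 (SE, adjusted p = 0.835) and 0.29 ± 0.23 (SE, adjusted p = 0.393). Marrow had 8.11, 8.04 and 7.89, GM-CSF+IL-6 6.40, 6.44 and 7.21 and GM-CSF+G-CSF 6.62, 7.20 and 6.46. Slc43a3 fell, with a log2 difference of -1.33 ± 0.23 (SE, adjusted p = 4.15e-05) and -1.26 ± 0.23 (SE, adjusted p = 8.38e-05), with all culture arrays below marrow, but on the wide culture arrays alone the difference was -0.80 and -0.82 and not called. Slc43a2 rose with GM-CSF+G-CSF by 1.28 ± 0.25 (SE, adjusted p = 0.000174) and was 0.78 ± 0.25 (SE, adjusted p = 0.0144) higher with GM-CSF+IL-6. Without GM-CSF+G-CSF replicate 2 the rise was 0.98 and not called. The other probe sets of Slc43a2 rose there too (1.53 and 1.63), and they also rose in EL-4 by 1.04 and 1.30, where the chosen probe set gave 0.09. Slc43a1 was called nowhere and ranged from -0.78 in 4T1 to 0.58 with GM-CSF+G-CSF.

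Among the SLC1 carriers, Slc1a5, the main sodium-dependent exchanger of glutamine, rose in the cultures only as far as the calls go. Marrow had 7.07, 6.84 and 6.97, GM-CSF+IL-6 8.41, 8.51 and 8.96 and GM-CSF+G-CSF 8.29, 8.64 and 8.49, with no overlap. The rises were 1.67 ± 0.15 (SE, adjusted p = 3.25e-09) and 1.52 ± 0.15 (SE, adjusted p = 1.82e-08). In the tumor settings Slc1a5 differed from healthy spleen by 0.65 in C26-GM spleen (adjusted p = 0.00366), 0.28 in the C26-GM tumor, 0.47 in 4T1 (adjusted p = 0.0223), -0.02 in EL-4 and -0.05 in MCA203, and none of these was called. Its other probe set read 0.57 and 0.31 in the cultures and was called in neither.

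Slc1a4, an exchanger of serine, alanine and cysteine, and Slc1a3, a glutamate carrier, depended on the probe set. The chosen Slc1a4 probe set, which was dim, stood at 4.99, 5.05 and 5.27 in marrow, 3.26, 3.13 and 5.27 with GM-CSF+IL-6 and 3.34, 5.34 and 3.54 with GM-CSF+G-CSF. The low values were those of the 4 narrow arrays, and the 2 wide ones stood above the marrow range or within it, so the groups overlapped. The fitted differences were -1.22 ± 0.42 (SE, adjusted p = 0.023) and -1.03 ± 0.42 (SE, adjusted p = 0.0511), and the first was not called without fresh marrow replicate 3 (-1.13), GM-CSF+IL-6 replicate 1 (-0.91) or replicate 2 (-0.84), or in a model of the 2 compared groups alone (adjusted p = 0.127). The other probe sets of Slc1a4 were higher in both cultures, by 1.27 and 1.12 (called) and by 0.82 and 0.50 (not called), so the direction of Slc1a4 in culture is not settled here. The first of them was also called in 4T1 (1.04). For Slc1a3 the chosen probe set fell in 4T1, with a log2 difference of -1.15 ± 0.21 (SE, adjusted p = 9.06e-05) and in EL-4, at -1.26 ± 0.21 (SE, adjusted p = 3.22e-05), and was -0.97 ± 0.21 (SE, adjusted p = 0.000757) in MCA203. The 4T1 call was lost without 4T1 replicate 1 (-0.99). That probe set is of the kind that may bind other transcripts, and one without that mark fell in all 5 comparisons with healthy spleen, at -2.15 in C26-GM spleen, -2.99 in the C26-GM tumor, -3.17 in 4T1, -2.82 in EL-4 and -2.96 in MCA203. Another probe set fell in the same 5 (-1.18 to -2.25), 1 fell in the C26-GM tumor (-1.15), 4T1 (-1.44) and EL-4 (-1.14), and the last 2 were called in none. Slc1a1, Slc1a2, Slc1a6 and Slc1a7 were dim and called nowhere.

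SLC38 carriers bring in glutamine and small neutral amino acids with sodium. Slc38a1 and Slc38a2 are the classical pair of this transport, next to Slc38a4 on chromosome 15 with no protein-coding gene between them. Both lay below healthy spleen in EL-4 and MCA203, while in the C26-GM tumor Slc38a2 was higher and Slc38a1 lower. Slc38a1 had 6.98, 6.98 and 7.10 in marrow, 7.95, 8.07 and 9.16 with GM-CSF+IL-6 and 7.86, 8.93 and 7.94 with GM-CSF+G-CSF. It rose by 1.37 ± 0.26 (SE, adjusted p = 0.00013) and 1.22 ± 0.26 (SE, adjusted p = 0.000479), with all 6 culture arrays above marrow and the wide arrays the highest. Without the wide array the differences were 0.99 (without GM-CSF+IL-6 replicate 3) and 0.88 (without GM-CSF+G-CSF replicate 2), just under the 2-fold limit, and on the wide array alone they were 2.14 and 1.91. In C57BL/6 it had 9.04, 9.04 and 9.15 in healthy spleen, 8.10, 7.76 and 8.03 in EL-4 and 8.09, 8.42 and 8.04 in MCA203. Both infiltrates lay below healthy spleen, with a called difference of -1.11 ± 0.26 (SE, adjusted p = 0.00153) in EL-4 and a difference of -0.89 ± 0.26 (SE, adjusted p = 0.0101) in MCA203. The second probe set of Slc38a1 was -0.81 in EL-4, not called, and rose in both cultures (1.42 and 1.08). In BALB/c it had 8.65, 8.80 and 8.79 in healthy spleen, 8.64, 8.80 and 8.94 in C26-GM spleen, 8.33, 7.74 and 7.51 in the C26-GM tumor and 8.53, 8.60 and 8.50 in 4T1. The C26-GM tumor was the only one of these with a difference near 2-fold (-0.89 ± 0.26 SE, adjusted p = 0.00967), and there the second probe set gave -0.14.

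Slc38a2, which cells are known to raise when amino acids run short, had 10.14, 10.10 and 10.19 in healthy BALB/c spleen and 11.15, 11.22 and 11.07 in the C26-GM tumor. It rose there by 1.004 ± 0.25 (SE, adjusted p = 0.00337), at the 2-fold limit, with no overlap. In MCA203 it went the other way, from 10.15, 10.51 and 10.22 in healthy C57BL/6 spleen to 8.77, 9.26 and 8.49, a called difference of -1.45 ± 0.25 (SE, adjusted p = 7.1e-05). Its other probe sets read 1.66 (called) and 0.76 in the C26-GM tumor, and -1.23 (called) and -0.43 in MCA203. EL-4, at 9.58, 9.44 and 9.33, was also lower than healthy spleen (-0.84 ± 0.25 SE, adjusted p = 0.0137), while C26-GM spleen (0.01) and 4T1 (-0.22) were near it. The rise in the C26-GM tumor was 0.98 without healthy BALB/c spleen replicate 2 and 0.97 without C26-GM tumor replicate 2, under the limit. In the cultures Slc38a2 was -0.77 ± 0.25 (SE, adjusted p = 0.0188) and -0.60 ± 0.25 (SE, adjusted p = 0.0607), overlapping marrow, and it was called, at -1.09, without GM-CSF+IL-6 replicate 3, the wide array, on which alone it was -0.11. Of its other probe sets one was -0.96 with GM-CSF+IL-6 and fell with GM-CSF+G-CSF (-1.18), and the other was 0.10 and 0.27, not called.

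Slc38a6, a less studied member of the family, rose in 4T1 and in both cultures. It had 7.75, 7.62 and 7.57 in healthy BALB/c spleen, 7.02, 7.38 and 7.76 in C26-GM spleen, 7.18, 7.16 and 7.35 in the C26-GM tumor and 8.81, 8.86 and 8.67 in 4T1. All 4T1 arrays were above the healthy ones, a rise of 1.14 ± 0.16 (SE, adjusted p = 2.98e-06), while the C26-GM groups were -0.26 and -0.42 (adjusted p = 0.338 and 0.0524). In C57BL/6 the levels were 7.25, 7.42 and 7.57 in healthy spleen, 8.03, 8.41 and 8.23 in EL-4 and 7.63, 7.17 and 7.25 in MCA203. EL-4 lay above healthy spleen without overlap (0.81 ± 0.16 SE, adjusted p = 0.000307) and MCA203 overlapped it (-0.06 ± 0.16 SE, adjusted p = 0.817). Marrow had 6.41, 6.29 and 6.31, GM-CSF+IL-6 7.29, 7.32 and 7.48 and GM-CSF+G-CSF 7.31, 7.59 and 7.60. All culture arrays were above marrow, with rises of 1.03 ± 0.16 (SE, adjusted p = 1.33e-05) and 1.16 ± 0.16 (SE, adjusted p = 2.28e-06). The first was 0.97 without GM-CSF+IL-6 replicate 3 and then under the limit. Its second probe set, 0.28 in 4T1 and 0.38 in both cultures, was called in none of the 7.

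**Figure D3:**
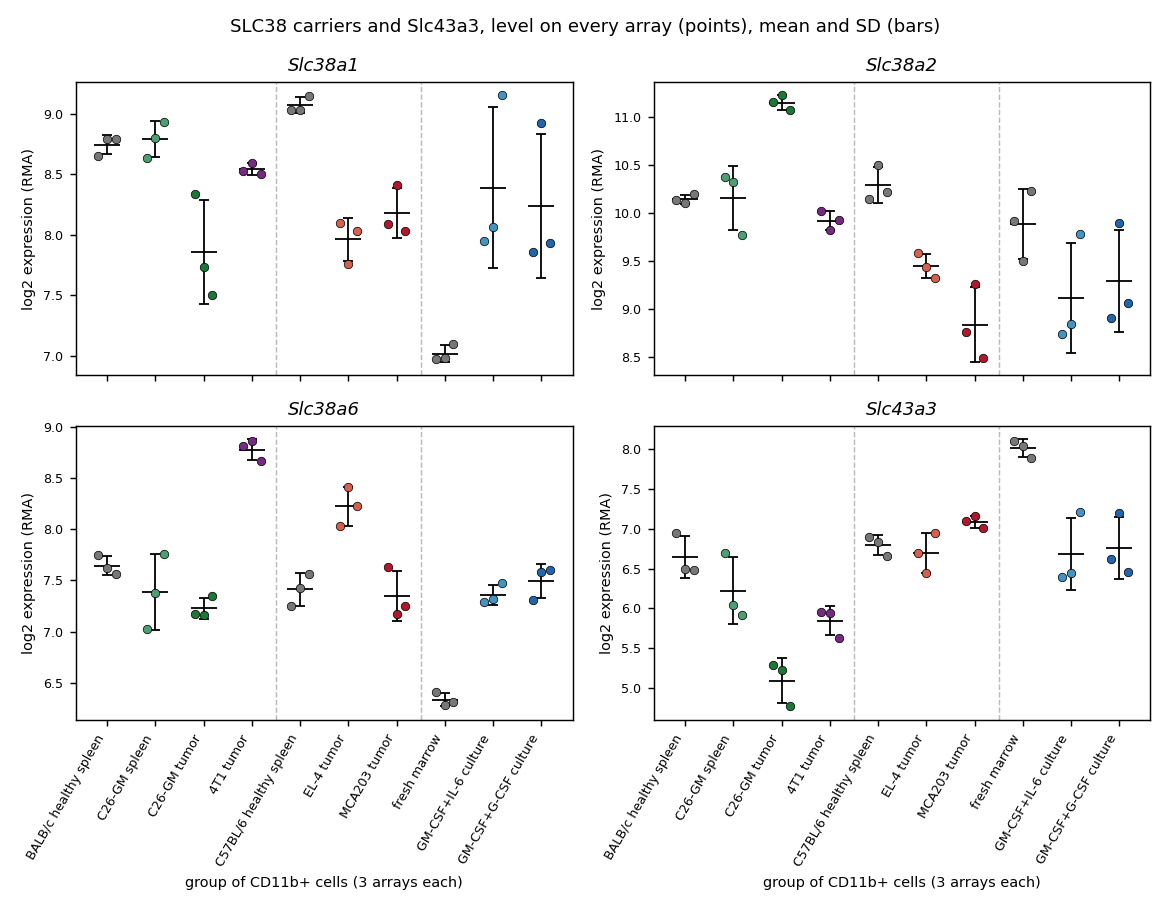
Log2 expression of Slc38a1, Slc38a2, Slc38a6 and Slc43a3 on each of the 30 arrays (coloured points, 3 a group, in the order of replicates), with the mean and SD in black and dashed lines between the sets that share a reference. Slc38a2 is highest in the C26-GM tumor (11.1 to 11.2) and lowest in MCA203 (8.49 to 9.26), and Slc43a3 is highest in fresh marrow (7.89 to 8.11).

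Slc38a4, Slc38a5 and Slc38a9 were each called once. Slc38a4, a carrier best known from liver and placenta, was dim everywhere and rose in MCA203 by 1.45 ± 0.17 (SE, adjusted p = 1.56e-07), from 2.49, 2.69 and 2.57 to 4.20, 4.13 and 3.76, while its second probe set gave 0.83 and was not called. Slc38a5, which moves glutamine in either direction, fell in 4T1, with a log2 difference of -1.33 ± 0.21 (SE, adjusted p = 1.89e-05), from 4.66, 4.68 and 4.33 to 3.10, 3.27 and 3.32, and stood between -0.93 and -0.61 in the other infiltrates. Slc38a9, the lysosomal arginine sensor of the mTORC1 pathway, fell in EL-4, with a log2 difference of -1.19 ± 0.18 (SE, adjusted p = 1.43e-05), from 8.05, 8.05 and 7.98 to 6.76, 6.83 and 6.92, and stood between -0.73 and -0.51 in the other 3 infiltrates. It has 7 probe sets, of which 3 fell in EL-4 (-1.19, -1.33 and -1.68) and the other 4 were between -0.44 and 0.07. One of the latter 4 also fell in culture (-1.11 with GM-CSF+G-CSF), as did another (-1.11), while a further one that fell in EL-4 also fell in 4T1 (-1.15) and MCA203 (-1.15). Slc38a3, Slc38a7 and Slc38a10 were called nowhere, and Slc38a7 was above 0 in all 7 comparisons (0.14 to 0.93).

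Of the proton-coupled SLC36 carriers, Slc36a1, a lysosomal exporter of small amino acids, rose in C26-GM spleen by 1.13 ± 0.20 (SE, adjusted p = 0.000181), from 7.23, 7.16 and 7.24 to 8.24, 8.23 and 8.55. It was also above healthy spleen without overlap in the C26-GM tumor (0.90 ± 0.20 SE, adjusted p = 0.00114), 4T1 (0.45 ± 0.20 SE, adjusted p = 0.108) and EL-4 (0.89 ± 0.20 SE, adjusted p = 0.00139), under 2-fold, but not in MCA203 (-0.05) or the cultures (-0.29 and 0.08). Slc36a4, a high-affinity carrier of proline and tryptophan, rose in EL-4 by 1.08 ± 0.28 (SE, adjusted p = 0.00469), from 7.15, 6.50 and 6.84 to 7.75, 8.18 and 7.81. That call was lost without healthy C57BL/6 spleen replicate 2 (0.92) and without EL-4 replicate 2 (0.95). Slc36a2 and Slc36a3, neighbours of Slc36a1 on chromosome 11, were called nowhere.

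Slc36a1 and Slc38a5 are the 2 called carriers whose RefSeq promoters (build GRCm38.p6) held an E-box, CACGTG, the site that transcription factors of the MYC and TFEB kind can bind, and so their windows are shown with it in capitals. The table held 64 promoters of 44 of the 60 genes. The called carriers Slc1a5, Slc38a1, Slc43a3, Slc6a8 and Slc7a5 had no promoter in it and were not searched. The motif, which reads the same on both strands, was found in 9 of these 64 and in 7.15% of all 32851 promoters of that length, or in 9 of the 44 genes and 8.09% of all 27025 genes. TGATGNAAT, on either strand, was found in 1 of the 64, of Slc6a21, and in 0.965% of all promoters. Both windows lie upstream of the start site on the plus strand and run 5′ to 3′, chr11:55204264-55204339 for Slc36a1 with the match starting 31 bases before the start site, and chrX:8271306-8271380 for Slc38a5 with 30 bases. In the Slc36a1 promoter a second CACGTG overlaps the start site itself. A match is letters in a window and no measurement of binding.
Slc36a1: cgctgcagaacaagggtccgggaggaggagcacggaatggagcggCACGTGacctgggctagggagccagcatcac
Slc38a5: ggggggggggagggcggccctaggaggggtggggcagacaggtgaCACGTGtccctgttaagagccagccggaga

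Among the SLC6 carriers, which use sodium and chloride, Slc6a8 carries creatine into cells as an energy store. It had 4.55, 4.86 and 4.98 in healthy BALB/c spleen, 5.23, 5.20 and 5.58 in C26-GM spleen, 6.23, 5.72 and 5.83 in the C26-GM tumor and 6.92, 7.48 and 7.06 in 4T1. The arrays of tumor-bearing mice were all above the healthy ones and stood in the order spleen, C26-GM tumor and 4T1 without overlap. Slc6a8 rose by 1.13 ± 0.22 (SE, adjusted p = 0.000291) in the C26-GM tumor and by 2.36 ± 0.22 (SE, adjusted p = 3.65e-09), or 5.13-fold, in 4T1, and was 0.54 ± 0.22 (SE, adjusted p = 0.114) in the spleen. In C57BL/6 it had 4.91, 4.71 and 4.65 in healthy spleen, 7.55, 7.53 and 7.51 in EL-4 and 5.99, 6.97 and 6.19 in MCA203. The rises were 2.77 ± 0.22 (SE, adjusted p = 2.63e-10), or 6.84-fold, and 1.63 ± 0.22 (SE, adjusted p = 2.54e-06), and replicate 2 of MCA203 was the highest of its group. The second probe set rose in the same 4 infiltrates, by 1.40, 1.94, 3.07 and 1.23. Without C26-GM tumor replicate 1 the rise in that tumor was 0.98 and under the limit. Marrow had 5.37, 4.69 and 5.26, GM-CSF+IL-6 5.80, 5.88 and 5.28 and GM-CSF+G-CSF 5.75, 6.02 and 5.91. The first culture overlapped marrow and the second lay above it, with differences of 0.54 ± 0.22 (SE, adjusted p = 0.0544) and 0.79 ± 0.22 (SE, adjusted p = 0.00734), and the second probe set was called with GM-CSF+G-CSF (1.35).

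Slc6a20a, a proline carrier, was dim and highest in the healthy spleens. It had 3.98, 3.02 and 3.30 in BALB/c healthy spleen, 2.58, 2.56 and 2.64 in C26-GM spleen, 2.18, 2.54 and 2.52 in the C26-GM tumor and 2.41, 2.44 and 2.29 in 4T1. It fell, with a log2 difference of -1.02 ± 0.19 (SE, adjusted p = 0.000161) in the C26-GM tumor and -1.05 ± 0.19 (SE, adjusted p = 9.93e-05) in 4T1, and was -0.84 ± 0.19 (SE, adjusted p = 0.00256) in C26-GM spleen. Replicate 1 was the highest of the healthy BALB/c arrays. Without it the differences were -0.75 and -0.78 and not called, and without C26-GM tumor replicate 1 the first was -0.90. C57BL/6 healthy spleen had 3.97, 4.37 and 4.26, EL-4 2.34, 2.55 and 2.33 and MCA203 2.55, 2.42 and 2.42. The log2 differences were -1.79 ± 0.19 (SE, adjusted p = 4.27e-08) in EL-4 and -1.74 ± 0.19 (SE, adjusted p = 6.74e-08) in MCA203, both called, and the groups did not overlap. The infiltrate levels, between 2.18 and 2.55, lay near the 5th percentile of all values on those arrays (2.46 to 2.72), the low end of the scale, so the size of these differences is uncertain. Marrow at 2.52, 2.87 and 2.56 overlapped both cultures, at 2.72, 2.94 and 2.63 and 2.84, 2.17 and 2.67, with differences of 0.11 and -0.09 (adjusted p = 0.658 and 0.71). B cell markers were at their highest in the same healthy spleens (mean level 8.16 to 8.41 in BALB/c and 8.88 to 9.14 in C57BL/6) and fell in all 5 comparisons, and their part in the fall of Slc6a20a was not tested.

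Slc6a13, a carrier of GABA, betaine and taurine next to Slc6a12 on chromosome 6, had 6.17, 6.17 and 6.32 in healthy BALB/c spleen, 5.38, 5.43 and 4.75 in C26-GM spleen, 5.74, 6.08 and 5.70 in the C26-GM tumor and 4.46, 4.72 and 4.85 in 4T1. It fell in 4T1, with a log2 difference of -1.54 ± 0.23 (SE, adjusted p = 5.16e-06) and in C26-GM spleen, at -1.03 ± 0.23 (SE, adjusted p = 0.00168), and was -0.38 ± 0.23 (SE, adjusted p = 0.219) in the C26-GM tumor. Without C26-GM spleen replicate 3 the spleen value was -0.82, and without healthy BALB/c spleen replicate 3 it was -0.98, neither called. C57BL/6 healthy spleen had 6.22, 6.11 and 6.40, EL-4 5.60, 6.60 and 6.15 and MCA203 4.94, 4.41 and 4.84. All MCA203 arrays were below healthy spleen, a called difference of -1.52 ± 0.23 (SE, adjusted p = 8.41e-06), while EL-4 overlapped it (-0.13 ± 0.23 SE, adjusted p = 0.778). Marrow had 7.28, 7.10 and 7.18, GM-CSF+IL-6 6.99, 7.31 and 7.78 and GM-CSF+G-CSF 7.44, 7.91 and 7.50, with differences of 0.18 and 0.43 (adjusted p = 0.546 and 0.122). Neutrophil markers fell with Slc6a13 in 4T1 (6 of 10) and MCA203 (10 of 10) and also fell in EL-4 (9 of 10), where Slc6a13 was not called. In C26-GM spleen, where Slc6a13 fell, 1 of the 10 rose and 1 fell, and their mean level was between 11.7 and 12.9 against 12.0 to 12.1 in healthy spleen. Their part was not tested.

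Slc6a4, the serotonin carrier that platelets hold in quantity, rose in C26-GM spleen by 1.57 ± 0.30 (SE, adjusted p = 0.000359), from 4.11, 4.18 and 4.19 to 4.84, 5.49 and 6.87, and in the C26-GM tumor, at 5.11, 5.08 and 5.40, by 1.03 ± 0.30 (SE, adjusted p = 0.00971). No array overlapped healthy spleen, and C26-GM spleen replicate 3 was far above the other 2. Without it the rise in that spleen was 1.004 and still called. In the C26-GM tumor the call was lost without C26-GM tumor replicate 3 (0.93). In the other 5 comparisons Slc6a4 differed by 0.02 to 0.72 and was not called. Platelet markers rose in 3 of 7 cases in C26-GM spleen and 2 of 7 in the C26-GM tumor, with mean levels of 6.55 to 7.96 and 6.58 to 6.97 against 5.90 to 6.14 in healthy spleen. They also rose in 2 of 7 cases in 4T1, where Slc6a4 was not called, and their part in the rise of Slc6a4 was not tested. Of the other 17 SLC6 genes none was called, among them the taurine carrier Slc6a6 (-0.69 to 0.46), the glycine carrier Slc6a9 and the betaine carrier Slc6a12, whose lowest difference was -0.91.

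**Figure D4:**
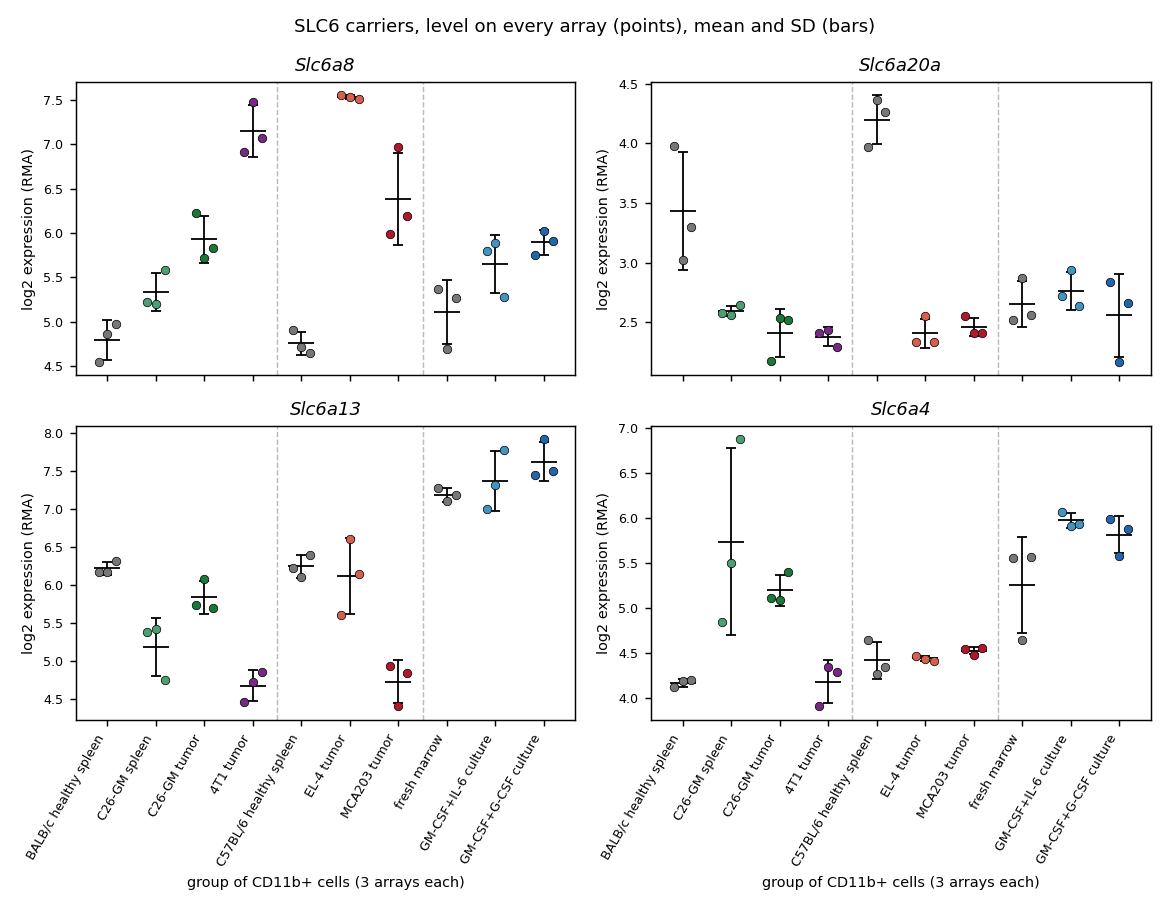
Log2 expression of Slc6a8, Slc6a20a, Slc6a13 and Slc6a4 on each of the 30 arrays (coloured points, 3 a group, in the order of replicates), with the mean and SD in black and dashed lines between the sets that share a reference. Slc6a8 is highest in EL-4 (7.51 to 7.55), Slc6a20a in healthy C57BL/6 spleen (3.97 to 4.37), and 1 array of C26-GM spleen stands out for Slc6a4 at 6.87.

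The 38 genes called in none of the 7 comparisons differed by at most 0.96 in size (Slc6a17). Of these 38, 26 never reached the 40th percentile of the highest group means of all genes, a log2 level of 5.90, against 4 of the 22 called ones (Slc1a4, Slc38a4, Slc38a5 and Slc6a20a). Among the dim ones are carriers known from nerve, kidney or gut: Slc6a3, Slc6a11, Slc6a18, Slc6a19, Slc7a9 and Slc36a2. On the narrow culture arrays such dim genes read higher than on the wide ones. The median difference of the 30 dim carriers from marrow was 0.56 and 0.58 on the narrow arrays of the culture with IL-6 and that with G-CSF, and -0.12 and -0.06 on the wide ones.

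The culture changes of the brighter carriers were therefore set side by side for narrow and wide arrays, a comparison chosen after seeing the data. With the wide arrays alone Slc7a5 rose by 3.20 and 2.46 and with the narrow ones by 2.65 and 1.83, called each time. Slc7a6 (2.17 and 2.08 wide, 1.37 and 1.54 narrow), Slc1a5 (2.00 and 1.68, 1.50 and 1.43) and Slc7a7 (-1.17 and -1.52, -1.95 and -2.20) were also called on both kinds. Slc3a2 in the GM-CSF+IL-6 culture was 1.31 and called on the wide array but 0.64 on the narrow ones. With 1 wide array a culture, that array is assumed to vary like the other groups.

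**Figure D5:**
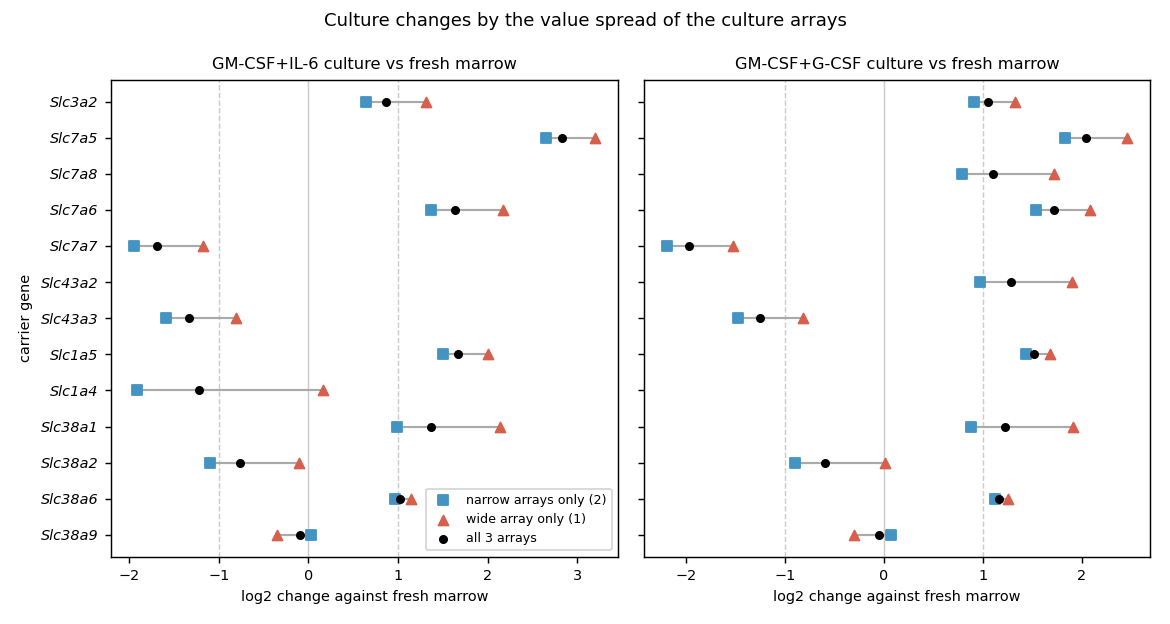
Log2 difference from fresh marrow (horizontal axis) of the carriers called in that culture and of Slc3a2, Slc38a2 and Slc38a9, with all 3 culture arrays (black circles), the 2 narrow arrays alone (blue squares) and the 1 wide array alone (red triangles), and dashed lines at a 2-fold change. Slc7a5 stays right of 1 and Slc7a7 left of -1 in each case, while Slc1a4 moves from -1.91 to 0.16.

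Between the groups of one kind the carriers differed as follows. The GM-CSF+G-CSF and GM-CSF+IL-6 cultures differed in 0 carriers called by limma, while 0.654% of all genes were called. Of the 60 genes, 3 had an unadjusted p under 0.05, and 1, Slc7a5, an adjusted p under 0.05 (difference -0.79, adjusted p = 0.0316). C26-GM tumor and C26-GM spleen differed in 3 of the 60 genes (6.16% of all genes), 1 of them Slc7a6os, which is not a carrier. Of the 60, 4T1 and C26-GM tumor differed in 7 (12.9%) and EL-4 and MCA203 in 5 (5.28%). The mean effect of the C57BL/6 tumors differed from that of the BALB/c tumors in 4 (4.93%). Under housekeeping centring these comparisons gave 3 rises and 0 falls, 3 and 5, 1 and 1, and 2 and 1, in place of 2 and 1, 4 and 3, 4 and 1, and 3 and 1, and the quantile normalization gave 2 and 4 between 4T1 and the C26-GM tumor. Healthy C57BL/6 and BALB/c spleen differed in 1 (1.40%): Slc7a7 was lower in C57BL/6, at -1.05 ± 0.20 (SE, adjusted p = 0.00156), and the call was lost without healthy BALB/c spleen replicate 3 (-0.998) or healthy C57BL/6 spleen replicate 2 (-0.91), and with array weights (-0.999). Fresh marrow and healthy BALB/c spleen differed in 7 carriers (13.3%). Higher in marrow were Slc6a12 (1.99 ± 0.24 SE, adjusted p = 2.7e-07), Slc43a3 (1.37 ± 0.23 SE, adjusted p = 2.3e-05) and Slc6a4 (1.09 ± 0.30 SE, adjusted p = 0.00553). Lower in marrow were Slc38a1 (-1.73 ± 0.26 SE, adjusted p = 5.11e-06), Slc43a2 (-1.73 ± 0.25 SE, adjusted p = 2.8e-06), Slc38a6 (-1.31 ± 0.16 SE, adjusted p = 2.61e-07) and Slc7a6 (-1.08 ± 0.18 SE, adjusted p = 3.87e-05). The call of Slc6a4 was lost without fresh marrow replicate 1 (0.94) or 3 (0.94), and those of Slc38a6 (-0.83) and Slc7a6 (-0.93) with the mean of probe sets.

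The genes around the carriers give the setting of these changes. Of 27 measured genes of the amino acid response, which ATF4 drives, and of serine and glycine synthesis, 10 rose and 1 fell in EL-4, 5 rose in 4T1, the C26-GM tumor had 4 rises and 1 fall, MCA203 3 and 1, and C26-GM spleen 1 fall. Of all genes, 6.42% rose and 4.40% fell in EL-4, 6.83% and 5.44% in 4T1, and 4.26% and 7.13% in the C26-GM tumor. The shares were 5.01% and 5.42% in MCA203 and 2.32% and 3.83% in C26-GM spleen. They were 5.00% and 9.07% with GM-CSF+IL-6 and 4.48% and 9.37% with GM-CSF+G-CSF. In EL-4 the stress factor Atf3 rose by 3.46 (adjusted p = 9.69e-11), the serine synthesis enzyme Psat1 by 2.30 (1.53e-08) and asparagine synthetase Asns by 1.92 (7.60e-07). In 4T1 they rose by 3.17, 2.23 and 1.42, and in MCA203 Atf3 and Psat1 rose by 3.20 and 2.09. Asns was not called in MCA203, and none of these genes was called in the C26-GM tumor. In the cultures 5 rose and 3 fell with GM-CSF+IL-6 and 6 rose and 2 fell with GM-CSF+G-CSF. Among the rises were Psat1 (1.87 and 1.62) and the proline synthesis enzyme Aldh18a1 (1.96 and 1.48). The genes that fell were Atf3, Ddit4 and Ddit3. Atf3 fell in both cultures (-1.26 and -1.16), and Ddit3 in C26-GM spleen (-1.105) and with GM-CSF+IL-6 (-1.07). Ddit4 fell in the C26-GM tumor (-1.25), EL-4 (-1.55), MCA203 (-1.53) and both cultures (-1.105 and -1.08). The median of the list was above that of all genes in each of the 7, 0.73 against 0.02 in EL-4 and 0.18 against 0.09 in C26-GM spleen.

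Of 25 measured genes of amino acid sensing at the lysosome, at most 2 rose and 3 fell in any comparison. The leucine sensor family member Sesn3 fell in C26-GM spleen (-2.45), the C26-GM tumor (-3.06), EL-4 (-1.21) and MCA203 (-1.32) and rose in 4T1 (1.60). Of 20 measured genes of amino acid use, 8 rose and 1 fell in EL-4, 4 rose in 4T1, the C26-GM tumor had 4 rises and 1 fall, 3 rose and 2 fell in MCA203, and none was called in C26-GM spleen. In each culture 3 genes of this list rose and 1 fell. The shares of all genes that rose and fell in each comparison are those given above. Gpt2, among the rises in EL-4 and the C26-GM tumor, is also counted in the amino acid response list. Arginase Arg1 rose in the 4 infiltrates by 6.78 in the C26-GM tumor, 8.92 in 4T1, 8.13 in EL-4 and 6.81 in MCA203. The other arginase, Arg2, rose in the C26-GM tumor (1.21) and fell in EL-4 (-1.89) and MCA203 (-3.02). Of 19 measured carriers of amino acids and peptides outside the 60, the peptide carrier Slc15a2 fell in all 7 comparisons, by 1.68 to 5.30. Among these 19, and left out of the 60 by the naming rule, the arginine carrier Slc7a2 rose in the C26-GM tumor (2.84), 4T1 (3.80), EL-4 (3.55) and both cultures (1.98 and 2.52), the cystine carrier Slc7a11 in the same 5 (3.17, 2.13, 2.65, 1.12 and 1.51), and the arginine carrier Slc7a1 in 4T1 (1.30) and with GM-CSF+IL-6 (1.23). In MCA203 none of these 3 was called (0.12, 0.25 and 0.31).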

How the data were processed

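The deposited table holds log2 expression values per probe set of 30 arrays, made by the authors with RMA per the submitters' processing notes (version not given in the sources used here). Scanner files were not used, so background correction and scan date were not varied, and the number of arrays limits the precision. Of 45101 probe sets, 34958 carried 1 symbol in the platform annotation, 932 several and 9211 none, which left 18194 genes, each by its 1-symbol probe set with the highest mean. All 10 groups entered 1 model in limma 3.58.1 (R 4.3.3; lmFit, contrasts.fit, eBayes), so the SE rests on the spread over all groups, with Benjamini-Hochberg adjustment over all genes in each of 14 comparisons. The fit was tested on simulated data. Figures were drawn with Python 3.11.15 and matplotlib 3.10.9.

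Named with values were all carriers called in at least 1 of the 7 comparisons with a reference, with the level on every array for those called in 3 or more or changed by at least 2, and Slc3a2, Slc7a5, Slc1a5, Slc38a2 and Slc38a9 always. Of each context list up to 4 called genes with the largest differences were eligible, and of the amino acid response list also the genes that fell. The genes, lists and rules were chosen with earlier results of these data known. All comparisons were fitted without pairing by replicate number. The correlation of same-numbered deviations was over 0.1 for all 3 numbers in no comparison. Between C26-GM tumor and C26-GM spleen it was 0.37, 0.06 and 0.47, and values ran from -0.85 to 0.79 between the cultures. With 3 arrays a group this cannot exclude a pairing.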

Additional observations from a re-analysis of the deposited data

Results flagged for a closer look

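Carriers that differed between groups of one kind are given here with limma's fitted difference. Between the C26-GM tumor and C26-GM spleen, Slc3a2 was higher in the tumor by 1.17 ± 0.19 (SE, adjusted p = 6.33e-05), Slc43a3 lower, at -1.13 ± 0.23 (SE, adjusted p = 0.000682) and Slc7a6os higher by 1.05 ± 0.33 (SE, adjusted p = 0.0323). The Slc43a3 call was lost without C26-GM spleen replicate 1 (-0.89) or C26-GM tumor replicate 3 (-0.97), and that of Slc7a6os in 5 of 6 such repeats (0.96 to 1.12). Without replicate 3 of both groups it was 1.22 and not called, and with the mean of its probe sets 0.48 (adjusted p = 0.119). Slc43a3 was also not called with housekeeping centring (-0.99) or array weights (-0.96).

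Between 4T1 and the C26-GM tumor, Slc38a6 (1.55 ± 0.16 SE, adjusted p = 2.45e-08), Slc7a6 (1.40 ± 0.18 SE, adjusted p = 1.32e-06), Slc6a8 (1.22 ± 0.22 SE, adjusted p = 0.000106) and Slc7a8 (1.07 ± 0.29 SE, adjusted p = 0.0059) were higher in 4T1. Slc38a2 (-1.23 ± 0.25 SE, adjusted p = 0.000413), Slc6a13 (-1.16 ± 0.23 SE, adjusted p = 0.00022) and Slc6a4 (-1.02 ± 0.30 SE, adjusted p = 0.00931) were lower. The calls of Slc7a8 without C26-GM tumor replicate 1 (0.94) and of Slc6a4 without C26-GM tumor replicate 3 (-0.92) or 4T1 replicate 1 (-0.88) were lost. The quantile normalization ended the calls of Slc6a8 (0.98), Slc7a8 (0.77) and Slc6a4 (-0.94), housekeeping centring that of Slc7a8 (0.91), array weights that of Slc6a4 (-0.98) and the mean of probe sets those of Slc6a8 (0.88) and Slc38a6 (0.998).

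Between EL-4 and MCA203, Slc6a13 (1.39 ± 0.23 SE, adjusted p = 7.31e-05), Slc6a8 (1.15 ± 0.22 SE, adjusted p = 0.000627), Slc7a8 (1.11 ± 0.29 SE, adjusted p = 0.0105) and Slc7a5 (1.03 ± 0.19 SE, adjusted p = 0.000405) were higher in EL-4 and Slc38a4 (-1.22 ± 0.17 SE, adjusted p = 7.44e-06) was lower. Without MCA203 replicate 1 Slc6a8 was 0.95, and without EL-4 replicate 3 or MCA203 replicate 3 Slc7a8 was 0.95 or 0.87, none of them called. Slc7a5 lost its call without any of EL-4 replicates 2 and 3 and MCA203 replicates 1 and 3 (0.90 to 0.99). Housekeeping centring ended the calls of Slc6a8 (0.96), Slc7a8 (0.92) and Slc7a5 (0.84), the quantile normalization that of Slc7a5 (0.91) and the mean of probe sets that of Slc38a4 (-0.93).

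The tumor effect in C57BL/6, the mean of EL-4 and MCA203 less healthy spleen, differed from that in BALB/c, the mean of the C26-GM tumor and 4T1 less healthy spleen, in 4 carriers by the interaction contrast. It was higher in C57BL/6 for Slc7a8 (1.61 ± 0.36 SE, adjusted p = 0.00377), Slc43a3 (1.27 ± 0.28 SE, adjusted p = 0.00286) and Slc7a7 (1.07 ± 0.24 SE, adjusted p = 0.00405), and lower for Slc38a2 (-1.54 ± 0.31 SE, adjusted p = 0.00131). The Slc7a7 call was lost without healthy C57BL/6 spleen replicate 2 (0.93), with housekeeping centring (0.87) and with the quantile normalization (0.99). Healthy C57BL/6 spleen was itself lower than healthy BALB/c spleen for Slc7a7 (-1.05), and that difference between the references is part of the contrast. Strain and tumor model cannot be told apart in this contrast, nor can sex, since Xist was low on the C26-GM arrays. Its BALB/c side averages tumors that differed, as for Slc38a2 (1.004 in the C26-GM tumor and -0.22 in 4T1).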

How the results depend on the processing

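In all 14 comparisons 78 differences were called. A replicate block kept all 78, as did a trended and robust prior. A model of the compared groups only kept 77, probe sets without the marks of cross-binding 77, an adjusted p under 0.01 75, a second quantile normalization 69, housekeeping centring 67, array weights 66 and the mean of all probe sets 65. Without dim genes 70 of 70 remained called. Leaving out 1 array at a time ended 26 calls at least once and turned none. With no minimum fold the counts of called genes among the 60 were 7, 17, 15, 18, 14, 24 and 26 in the 7 comparisons with a reference in the order given above. They were 6 (C26-GM tumor against spleen), 21 (4T1 against C26-GM tumor), 11 (EL-4 against MCA203), 1 (between cultures), 3 (between strains) and 14 (marrow against spleen). As shares of the 60 the first 7 are 11.7%, 28.3%, 25%, 30%, 23.3%, 40% and 43.3%, against 14.4%, 27.6%, 25.4%, 25.2%, 23.8%, 39.1% and 39.7% of all genes at that threshold. The others, in the order given, are 10%, 35%, 18.3%, 1.67%, 5% and 23.3%, against 14.2%, 33.8%, 15%, 1.24%, 2.56% and 28.9% of all genes.

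Without replicate 3 of both C26-GM groups, an alternative added after seeing the data, 2 carriers were called in C26-GM spleen in place of 4, and 19 of 24 calls in comparisons with C26-GM remained. In the GM-CSF+IL-6 culture array weights and the narrow arrays alone each gave 13 carriers (21.7%) in place of 8, while the share of all genes called went from 14.1% to 23.6% under either. Housekeeping centring gave 2 between EL-4 and MCA203 and array weights 0 between strains. Leaving out 1 array gave 2 to 5 (C26-GM spleen), 7 to 13 (GM-CSF+IL-6), 3 to 5 (EL-4 against MCA203), 0 to 1 (between cultures) and 0 to 2 (between strains), and the other 9 counts stayed within 1.5 times. The lowest counts came without C26-GM spleen replicate 3, EL-4 or MCA203 replicate 3, and, between strains, healthy BALB/c replicate 3 or C57BL/6 replicate 2. The highest came without GM-CSF+IL-6 replicate 3, GM-CSF+G-CSF replicate 2 and healthy BALB/c replicate 1.

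Slc1a4 with GM-CSF+IL-6 turned to 0.29 with the mean of its probe sets, 0.16 on the wide array and 0.11 with a term for narrow arrays. The other sign changes were of differences that were not called. Slc38a2 in C26-GM spleen was -0.051 with housekeeping centring and -0.051 with the mean of probe sets, and with GM-CSF+G-CSF 0.008 on the wide array and 0.035 with the term. Slc1a5 was -0.009 in 4T1 with the mean of probe sets and 0.037 in EL-4 with array weights. Slc38a9 was 0.11 by quantile normalization and 0.03 on narrow arrays with GM-CSF+IL-6, and 0.18, 0.015 (array weights) and 0.071 (narrow arrays) with GM-CSF+G-CSF. Leaving out 1 array, the ranges were -0.093 to 0.204 for Slc38a2 in C26-GM spleen, -0.135 to 0.079 and -0.178 to 0.041 for Slc1a5 in EL-4 and MCA203, and -0.214 to 0.03 and -0.135 to 0.071 for Slc38a9 in the cultures. The cause of these changes was not tested.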
